A study of Mus musculus with 4 samples.

Results

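Pol II peaks were examined at 4 mouse genes of the fibroblast growth factor (FGF) receptor family, Fgfr1, Fgfr2, Fgfr3 and Fgfrl1, out of 21883 protein-coding genes on assembled chromosomes. The family was chosen by the number, length and covered share of its peaks in earlier results of these data, and every peak inside a gene or within 20 kb of its boundaries was taken. Those numbers, lengths and shares are therefore given below as a description, with no test. The assay was ChIP-seq for RNA polymerase II (Pol II): DNA fixed to the polymerase is pulled down with an antibody and sequenced, and a peak is a stretch with an excess of such DNA. The cells were primary osteoblasts labelled young, grown out of cut bone as marrow stromal cells and kept for 3 days in osteogenic medium. One Pol II library was titled WT osteoblasts, and the other was titled as treated with OSS_128167, an inhibitor of the chromatin deacylase SIRT6. The untreated group rests on the titles alone, because the treatment field names OSS_128167 for all 4 samples. The deposited name of the treated list mentions SIRT6 and not the inhibitor, so its identity, too, rests on the title. The other 2 samples are inputs, 1 for each condition, and they were not used here by themselves.

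FGF receptors are receptor tyrosine kinases. An FGF ligand together with heparan sulfate pairs the receptors at the cell surface, and their kinases then recruit the adaptor FRS2 and switch on the RAS to MAP kinase cascade, phospholipase C gamma and PI3 kinase. In the skeleton, FGFR1 and FGFR2 act in cells of the osteoblast lineage, and activating changes in human FGFR2 cause premature fusion of skull sutures. FGFR3 restrains growth plate chondrocytes, and its overactive forms cause human achondroplasia. FGFRL1 binds FGF ligands and heparan sulfate but has no intracellular kinase domain.

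In osteoblasts given OSS_128167, Pol II peaks were spread over nearly the whole of Fgfr2 and covered 64.4% of its bases, while the other family members had few or none. The OSS_128167 list held 82 peaks inside or within 20 kb of the 4 genes. Of these, 65 were at Fgfr2, 13 at Fgfr1, 4 at Fgfr3 and 0 at Fgfrl1. The untreated list held 0 at any of them. A peak inside the gene was listed for 3 of the 4 members in the OSS_128167 list, where 34.4% of protein-coding genes had one, and for 0 in the untreated list, where 2.18% did. A gene-end peak, one that reaches within 1000 bp of either gene boundary, was listed for Fgfr2 alone (1 of 4) in the OSS_128167 list, against 14.1% of protein-coding genes, and for 0 of 4 in the untreated list, against 0.393%. Such a peak may lie wholly outside the gene. Counting only peaks with an FDR of at most 0.05, Fgfr1 and Fgfr2 had a peak inside (9.97% of protein-coding genes) and Fgfr2 had one at its end (5.22%).

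The untreated list was far shorter, with 1694 peaks against 40748, and only 23 of its peaks lay on chromosome 7, where Fgfr2 is. The untreated peak nearest to Fgfr2 was 23925 kb away. The nearest to Fgfr1 and Fgfr3 were 2597 and 2506 kb away, and the nearest to Fgfrl1 was 141 kb away. Peaks with an FDR of at most 0.05 made up 6.43% of the untreated list and 16.1% of the OSS_128167 list. The untreated pileups came in steps of about 0.54 and those of the OSS_128167 list in whole numbers, so the lists were scaled differently and their heights were not compared. With 1 library per condition there is no replicate, and no difference between the conditions was tested. A weaker untreated immunoprecipitation and an effect of the inhibitor cannot be told apart. In bulk chromatin, neither can more cells with Pol II on a gene and more Pol II per cell. Of 10 osteoblast marker genes, 6 carried a peak at a gene end after OSS_128167 (Runx2, Sp7, Col1a1, Col1a2, Sparc and Postn), while Alpl, Bglap, Ibsp and Spp1 had no peak there. In the untreated list 1 of the 10 had one. After OSS_128167 the gene-end count was 1 of 5 chondrocyte, 1 of 5 macrophage, 1 of 5 endothelial and 0 of 5 epithelial markers. Of all protein-coding genes, 14.1% had a gene-end peak after OSS_128167 and 0.393% without. With OSS_128167, a peak inside was listed for 60% of osteoblast, macrophage and endothelial markers, 40% of chondrocyte and 0% of epithelial markers. The share of all protein-coding genes with a peak inside was 34.4%.

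**Figure D1:**
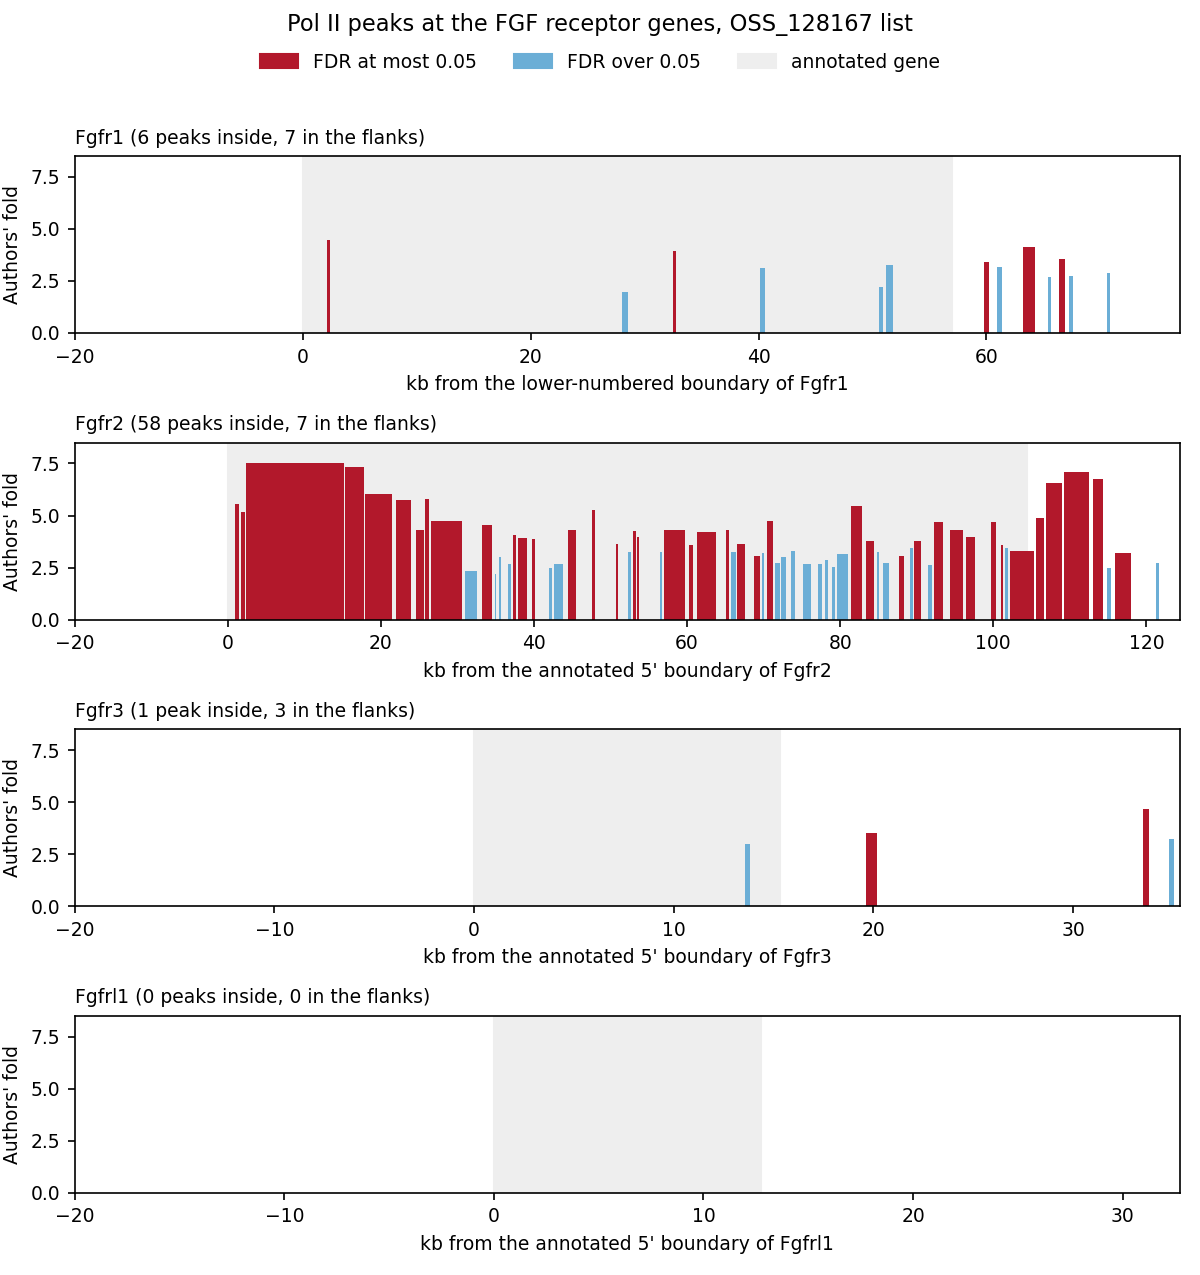
Pol II peaks at Fgfr1, Fgfr2, Fgfr3 and Fgfrl1 in the OSS_128167 list. The x axis is distance in kb along each gene, with 20 kb on either side, and the height of each bar is the fold enrichment that the authors gave the peak (bars narrower than 0.25 kb are drawn at that width). Red bars have an FDR of at most 0.05 and the gene is shaded. Fgfr2 carries 58 of the peaks that lie inside a member, against 6 in Fgfr1, 1 in Fgfr3 and 0 in Fgfrl1; the untreated list has none in these windows.

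Fgfr2 spans 104358 bp on chromosome 7 (mm10, chr7:130162451-130266808) and is transcribed from the minus strand, so its 5′ boundary is the higher coordinate. In the OSS_128167 list 58 peaks lay inside it and covered 67184 bp, or 64.4% of its length. The first and last of them were 103423 bp apart, which is 99.1% of the gene. Their lengths ran from 226 to 12778 bp with a median of 657 bp, against a median of 278 bp over the whole list. The authors' fold of these peaks ran from 2.20 to 7.53 with a median of 3.61, and the deposited pileup, a height of signal, from 6 to 23. Of the 58 peaks, 35 (60.3%) had an FDR of at most 0.05 and 7 an FDR of at most 1e-05.

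No other protein-coding gene over 100 kb came near this coverage. Among 2428 protein-coding genes over 100 kb, 82.7% had a peak inside, but their median covered share was 0.325%. Fgfr2 was the only one of them covered over at least 50% of its length, a share reached by 0.681% of all protein-coding genes. The next in this length class were Cald1, which encodes the actin-binding protein caldesmon, at 28.5%, and Cdh11, which encodes the cadherin of osteoblasts, at 14.5%. By number of peaks inside, 2 of the 21883 genes exceeded Fgfr2. These were Cald1 with 87 and Runx2, a master regulator of the osteoblast lineage, with 63. Both genes are longer, at 177 and 319 kb, and Runx2 was covered over 8.40%. The 110 genes with a higher covered share than Fgfr2 were all shorter than 100 kb and included histone genes, Fos and Actg1. Fgfr2 is itself only just over that length, and among 2516 protein-coding genes of 50 to 100 kb, 1 was covered over at least 50%.

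**Figure D2:**
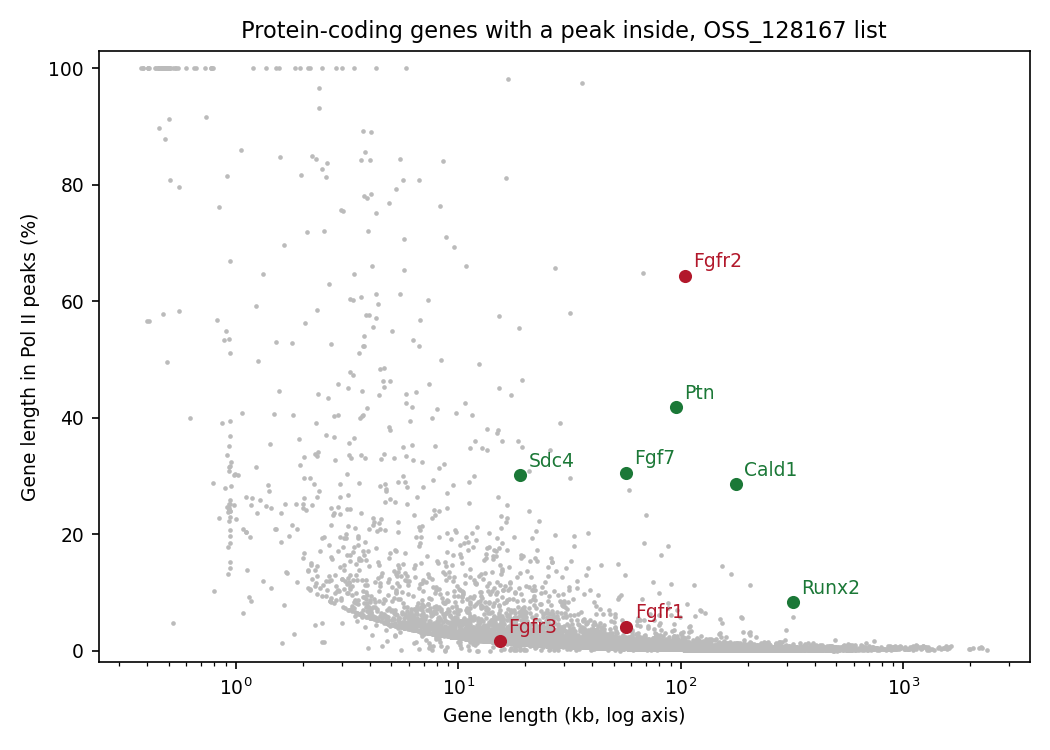
Share of gene length lying in Pol II peaks against gene length (log axis), for the protein-coding genes with a peak inside in the OSS_128167 list. Each grey point is a gene, members of the FGF receptor family are red, and 5 of the other genes named in the text (Ptn, Runx2, Cald1, Fgf7 and Sdc4) are green. Fgfr2 at 64.4% stands above every other gene over 100 kb, Ptn is at 41.8%, and Fgfr1 and Fgfr3 are far lower at 4.14% and 1.68%.

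Peaks were longest and of highest fold over the 5′ part of Fgfr2, thinner over its middle, and of high fold again beyond its 3′ boundary. The highest pileup, 24, lay beyond the 3′ boundary. The 25 kb nearest the 5′ boundary were covered over 88.6%. The longest peak of the gene, of 12778 bp (chr7:130251616-130264393), lay there with a fold of 7.53, a pileup of 23 and an FDR of 9.57e-13. In the full list 5 peaks were longer, and 76 had a higher fold. The next peak into the gene had a fold of 7.34 over 2448 bp, and the one after it 6.02 over 3548 bp. Between 25 and 75 kb the covered share was 54.9% and the median fold of 32 peaks was 3.61. From 75 kb to the 3′ boundary the covered share was 60.0% and the median fold of 20 peaks was 3.36. When the gene was divided into 10 equal stretches from the 5′ end, the covered share was highest in the second stretch, at 97.0%, and lowest in the fifth, at 30.5%.

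Beyond the 3′ boundary the series of peaks continued for 17.3 kb. The peak at the boundary was 3193 bp long and began 988 bp outside the gene, with a fold of 3.28 and an FDR of 0.0128. After it came 7 peaks wholly outside the gene. The first 4 of these had folds of 4.88, 6.58, 7.10 and 6.78, in order of distance from the 3′ boundary. All 4 had an FDR of at most 1e-05, and their pileups of 18 to 24 overlapped the 15 to 23 of the 6 peaks in the first 25 kb of the gene. The last 3 had folds of 2.46, 3.19 and 2.71, and 2 of them had an FDR of 0.377. In all 59.0% of the 20 kb after the 3′ boundary lay in peaks, while none of the 20 kb before the 5′ boundary did. The next annotated gene after the 3′ boundary, Gm39096, was 67.5 kb away, so these peaks overlapped no annotated gene. The deposited lists give no strand, so the direction of the Pol II there is not known.

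Among 4398 protein-coding genes with a strand in the promoter table and no annotated gene within 20 kb after the 3′ boundary, 26.9% had a peak in that stretch and the median covered share was 0%. None exceeded Fgfr2 there, and the next highest was Btg1, an antiproliferative gene, at 38.5%. Inside and outside together, the 65 Fgfr2 peaks formed a single run of 120.7 kb in which no gap reached 5 kb. The largest gap was 3354 bp, the median gap 402 bp, and 53 of the 64 gaps were under 1 kb. Of the 65 peaks, 40 had an FDR of at most 0.05. The OSS_128167 list gave 31854 such runs on assembled chromosomes, lone peaks included, and 4632 of them held more than 1 peak. The Fgfr2 run was the longest and the one with the most peaks. The next were 77.3 kb with 37 peaks over Fn1 and Atic, 59.2 kb with 35 peaks over Ptn, and 48.6 kb with 26 peaks over part of Runx2. Fn1 encodes fibronectin, and Ptn encodes pleiotrophin, a secreted heparin-binding growth factor.

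**Figure D3:**
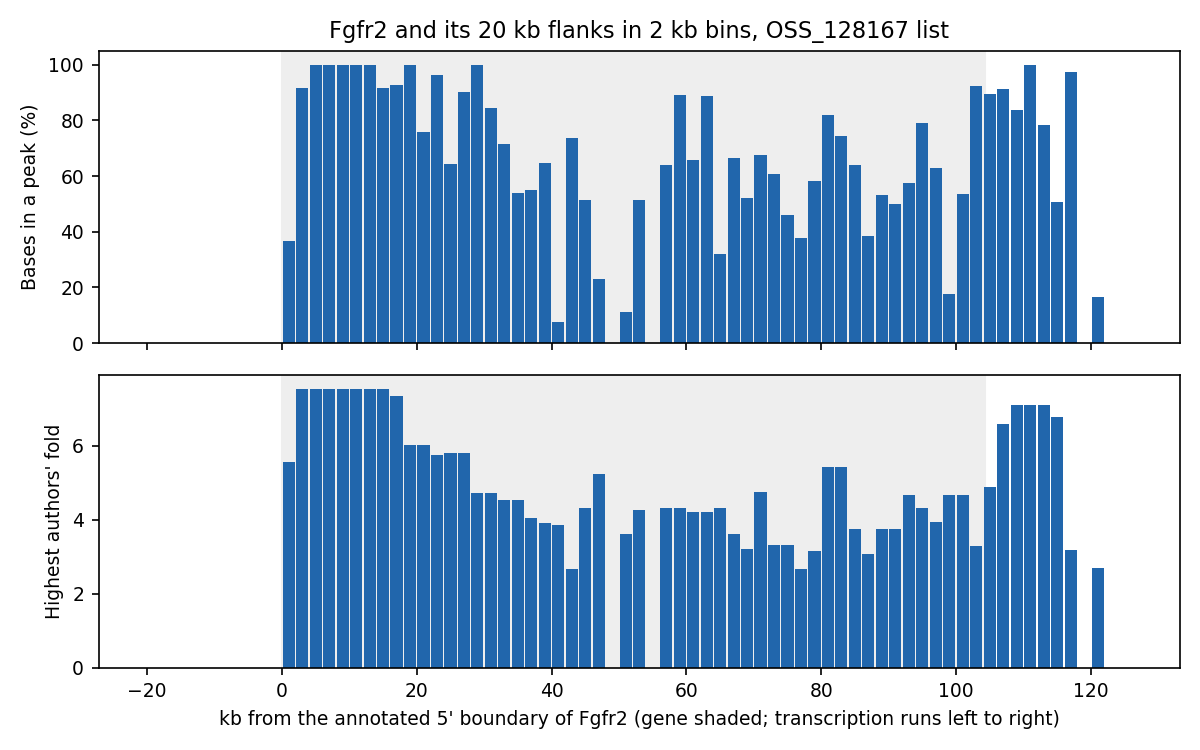
Fgfr2 and its 20 kb flanks in bins of 2 kb in the OSS_128167 list, from 5′ to 3′, with the gene shaded. The upper panel gives the share of bases in a peak (%) and the lower the highest fold that the authors gave a peak in the bin. Coverage starts inside the 5′ boundary, is lowest near the middle of the gene, and is high again after the 3′ boundary, where folds reach 7.10; the 20 kb before the 5′ boundary hold no peak.

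The annotated start of Fgfr2 itself was not under a peak. The nearest peak inside the gene, of 518 bp, ended 935 bp from the 5′ boundary, with a fold of 5.58 and an FDR of 1.04e-06. Promoter windows, from 250 bases before to 50 after an annotated start, came from RefSeq on GRCm38.p6. The table held 1 window for Fgfr2, 2 for Fgfr3 and 1 for Fgfrl1, so 3 of the 4 members had an entry, and Fgfr1 had none. None of these windows met a peak in either list, against 2.37% of 21262 promoter windows of protein-coding genes with OSS_128167 and 0.0376% without. The 250 bases before the start are shown for Fgfr2, whose body was covered, and for Fgfr3 (first window) and Fgfrl1, whose bodies were nearly or wholly bare, with each CpG in capitals, 5′ to 3′ on the strand of the gene. The stretches are chr7:130266809-130267058 (minus strand), chr5:33721474-33721723 (plus) and chr5:108693979-108694228 (plus).
Fgfr2: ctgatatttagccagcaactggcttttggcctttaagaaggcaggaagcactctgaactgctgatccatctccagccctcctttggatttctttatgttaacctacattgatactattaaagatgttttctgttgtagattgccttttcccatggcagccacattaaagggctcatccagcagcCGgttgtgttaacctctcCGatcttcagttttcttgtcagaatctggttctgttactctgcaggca
Fgfr3: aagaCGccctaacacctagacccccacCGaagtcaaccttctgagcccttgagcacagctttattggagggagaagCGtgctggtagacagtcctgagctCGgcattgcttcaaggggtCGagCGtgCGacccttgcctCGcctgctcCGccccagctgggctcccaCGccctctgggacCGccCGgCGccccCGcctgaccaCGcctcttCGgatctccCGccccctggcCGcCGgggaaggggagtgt
Fgfrl1: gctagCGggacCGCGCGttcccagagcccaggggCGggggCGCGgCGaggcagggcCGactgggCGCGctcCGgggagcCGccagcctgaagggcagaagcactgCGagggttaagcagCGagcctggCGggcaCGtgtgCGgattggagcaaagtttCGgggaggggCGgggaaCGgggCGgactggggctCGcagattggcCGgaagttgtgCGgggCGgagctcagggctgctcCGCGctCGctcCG
The Fgfr2 sequence holds 2 CpG, that of Fgfr3 19 and that of Fgfrl1 30. Over the full windows of 300 bases the counts were 4 for Fgfr2, 26 and 30 for the 2 windows of Fgfr3, and 37 for Fgfrl1, and the median of all protein-coding windows was 13. G and C made up 43.7% of the Fgfr2 window and 73.7% of that of Fgfrl1, against a median of 56.3%.

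Short motifs were searched on both strands of these windows. The Sp1 motif GGGCGG occurred 4 times in the first Fgfr3 window, 2 times in the second, 4 times in that of Fgfrl1 and 0 times in that of Fgfr2, and 46.2% of all windows held it. CACGTG, an E-box, occurred once in the Fgfr2 window, after the start and outside the printed stretch, and once in the Fgfrl1 window, where 7.84% of windows held it. The ETS motif CCGGAAG occurred once, in the Fgfrl1 window, and 11.6% of windows held it. The TATA box TATAAA, held by 12.6% of all windows, occurred in none of the 4. The same was so for the Runx motif TGTGGT, held by 15% of windows, and for the AP-1 motif TGANTCA, held by 6.99%. These matches describe letters only. The windows of Fgfr3 and Fgfrl1, rich in CpG and Sp1 motifs, belonged to genes with 1 and 0 peaks inside. Both genes are also shorter than Fgfr2, at 15.3 and 12.7 kb against 104 kb. A relation between promoter letters and peaks was not tested.

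Fgfr1, the receptor gene next in coverage, had 6 scattered peaks. It spans 56960 bp (chr8:25518759-25575718), and its peaks, of 263 to 561 bp, covered 4.14% of it. The peak with the highest fold, 4.44 with an FDR of 0.000878, lay 2116 bp inside the lower-numbered boundary and also within the long non-coding RNA gene Gm31288. The second highest, 3.96 with an FDR of 0.00716, lay near the middle of the gene and within the long non-coding RNA gene Gm16159. The other 4 peaks had folds of 1.95, 3.13, 2.20 and 3.25 and FDRs of 0.0802 to 0.873. Without strand in the deposited lists, Pol II on Fgfr1 and on the overlapping non-coding genes cannot be told apart. Of 2516 protein-coding genes of 50 to 100 kb, 59.3% had a peak inside, the median covered share was 0.343%, and 38 were covered over a larger share than Fgfr1.

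The flanking peaks of Fgfr1 belonged to its neighbour by position. All 7 lay inside Letm2, a gene of the mitochondrial LETM1 family that begins 2.76 kb above the upper boundary of Fgfr1. They covered 16.3% of Letm2, had folds of 2.67 to 4.15, and 3 of them had an FDR of at most 0.05. The 20 kb below the lower boundary held no peak.

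Fgfr3, which spans 15345 bp on the plus strand (chr5:33721724-33737068), had 1 peak. It was 258 bp long, covered 1.68% of the gene and lay 1538 bp inside the 3′ boundary, with a fold of 3.01, a pileup of 9 and an FDR of 0.183. Among 11845 protein-coding genes under 20 kb, 17.5% had a peak inside. The 3 flanking peaks were all inside Letm1, which encodes a mitochondrial inner membrane protein and lies 2.60 kb beyond the 3′ boundary of Fgfr3. Their folds were 3.51, 4.67 and 3.21, and 2 had an FDR of at most 0.05.

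Fgfrl1 spans 12722 bp on the plus strand (chr5:108694229-108706950) and had no peak in either list, inside or within 20 kb. Its neighbours within that distance, Idua, Slc26a1 and Gm42151, had none either. Fgfr4, the remaining FGF receptor gene with a kinase domain (chr13:55152818-55168759), likewise had 0 peaks inside or within 20 kb in both lists, as had Zfp346 near it. At a length under 20 kb a gene without a peak is the usual case in these lists.

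The limit of 20 kb left out 3 peaks of the OSS_128167 list within 50 kb of a member. One lay 37.1 kb before the 5′ boundary of Fgfr2, inside the long non-coding RNA gene Gm33555, with a fold of 3.23 and an FDR of 0.159. The others lay 48.3 and 49.1 kb from Fgfrl1, with folds of 3.31 and 2.62. Just inside the limit were a Letm1 peak 19.4 kb from Fgfr3, with a fold of 3.21, and the last peak beyond Fgfr2, with a fold of 2.71.

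Genes of a length within 10% of a member and of nearest covered share, summed over both lists, were looked up for the members with a peak. Among 592 such genes for Fgfr2, the median covered share was 0.268% and the nearest was Ptn, with 50 peaks over 41.8% of its 95.3 kb after OSS_128167 and over 0.755% without. It differed from Fgfr2 by 23.3 percentage points. The next were Gxylt2 at 8.09% and Nfix, which encodes a nuclear factor I transcription factor, at 7.02%. Fgfr1 had close matches in Slc9a8 (4.08%), Ube2r2 (3.97%) and Lrp4 (3.78%) among 829 genes. Fgfr3 had them in Ccar2, E330034G19Rik and Gm6721 among 1204 genes, each with 1 peak over 1.68% or 1.69%. Likeness over 2 lists is a coarse measure.

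The 55 other receptor tyrosine kinase genes were sparsely covered. In the OSS_128167 list 34 of them (61.8%) had a peak inside, against 34.4% of protein-coding genes. These genes are long, with a median of 65.6 kb against 17.2 kb, and among the 22 over 100 kb the share was 81.8%, against 82.7% of all genes of that length. Their median covered share was 0.313%, and the highest was 16.3% in Epha1, an ephrin receptor gene. None reached 50%. A gene-end peak was listed for 7 (12.7%, exact 95% interval 5.27 to 24.5), against 14.1%. The highest folds among these were 4.31 at Lmtk3 (FDR 0.00235), 3.95 at Ephb3 (FDR 0.0120), 3.23 at Epha2 (FDR 0.159) and 3.19 at Pdgfrb (FDR 0.0991). Pdgfrb encodes the platelet-derived growth factor receptor beta of mesenchymal cells. The peaks at Lmtk3 and Ephb3 lay outside the genes, which had none inside. In the untreated list Met, the hepatocyte growth factor receptor gene, had 1 interior peak and Alk had 3, and each of these had an FDR of 1. After OSS_128167 Met had 0 peaks inside and Alk had 6, of which 0 had an FDR of at most 0.05.

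Most FGF ligand genes held no peak, and Fgf7 had the largest covered share among them. Of 22 ligand genes, 4 had a peak inside after OSS_128167 (18.2%, 5.19 to 40.3), and none did without it. The 34.4% of all protein-coding genes lies inside that interval. Many ligand genes are under 20 kb, a length at which 17.5% of protein-coding genes had a peak inside. Fgf7, chosen after its values were seen, encodes a stromal ligand of an epithelial splice form of FGFR2. It had 13 peaks over 30.6% of its 56.5 kb, the longest of 10604 bp, with folds up to 5.76 and 7 peaks at an FDR of at most 0.05. No peak reached either end of it. Without strand in the deposited lists, Pol II on Fgf7 and on any gene that overlaps it cannot be told apart. Fgf1, Fgf12 and Fgf14 were covered over 0.343% to 0.579%. The 1 ligand gene with a gene-end peak was Fgf18, whose product acts on bone and cartilage (fold 2.36, FDR 0.232). That peak lay outside the gene, and 1 of 22 is 4.55%, against 14.1% of all protein-coding genes.

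Co-receptor genes, which here are heparan sulfate proteoglycans, Klothos and the adhesion molecule genes Cdh2, Ncam1 and L1cam, had a gene-end peak in 5 of 16 cases (31.3%, 11.02 to 58.7), and the 14.1% of all protein-coding genes lies inside that interval. Sdc4, which encodes the heparan sulfate proteoglycan syndecan-4, stood out with 11 peaks over 30.2% of its length and a gene-end fold of 5.04 (FDR 3.89e-06). Klb, which encodes beta-Klotho, the co-receptor of endocrine FGFs, had 3.33 (FDR 0.0352). That peak lay outside the gene, and the highest fold inside Klb was 2.67 (FDR 0.202). Sdc3 and Gpc1 had 2.71 and 2.58, with FDRs of 0.377 and 0.503.

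Of 26 genes that relay the receptor signal, 6 had a gene-end peak (23.1%, 8.97 to 43.6), and the 14.1% of all protein-coding genes lies inside that interval. Hras, a RAS GTPase gene, had a fold of 3.95 (FDR 0.0120) at a peak outside the gene, with none inside. Nras had a gene-end fold of 3.64 (FDR 0.0127). Nras had 4 peaks over 20.7% of its length after OSS_128167 and 1 without. The untreated peak in Nras had an FDR of 1. Grb2, an adaptor gene, had a fold of 3.01 with an FDR of 0.183 at a peak outside the gene.

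Feedback inhibitors had a gene-end peak in 3 of 17 cases (17.6%, 3.80 to 43.4), close to the 14.1% of all protein-coding genes. Dusp6, the phosphatase that switches off ERK and is a known output of FGF signalling, was covered over 61.2% of its 4.26 kb, with a gene-end fold of 3.61 (FDR 0.00567). Dusp4 had 3.32 (FDR 0.0947) and Cbl, a ubiquitin ligase, 2.87 (FDR 0.377). No Sprouty or Spred gene had a peak inside or at an end in either list.

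Transcription factor and cyclin genes that respond to FGF had a gene-end peak in 9 of 12 cases (75%, 42.8 to 94.5), against 14.1% of all protein-coding genes. No difference between the lists was tested. Ier2 had a fold of 9.93, Junb 9.76, Fos 7.24 and Myc 5.24, and the bodies of Ier2, Junb and Fos were covered over 100%. The Myc peak lay outside the gene, and the highest fold inside Myc was 4.81. Ier2, Junb, Fos and Myc are short and respond to many other stimuli. Etv1, Etv4 and Etv5, the ETS factors that are more closely tied to FGF signalling, had no peak. In the untreated list Ier2 alone had a gene-end peak, with a fold of 2.60 and an FDR of 1. Over all 93 pathway genes, 24 (25.8%) had a gene-end peak with OSS_128167 and 1 without, against 14.1% and 0.393% of all protein-coding genes. Of the 24, 9 came from these 12 genes, and the other 81 pathway genes gave 15 (18.5%).

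**Figure D4:**
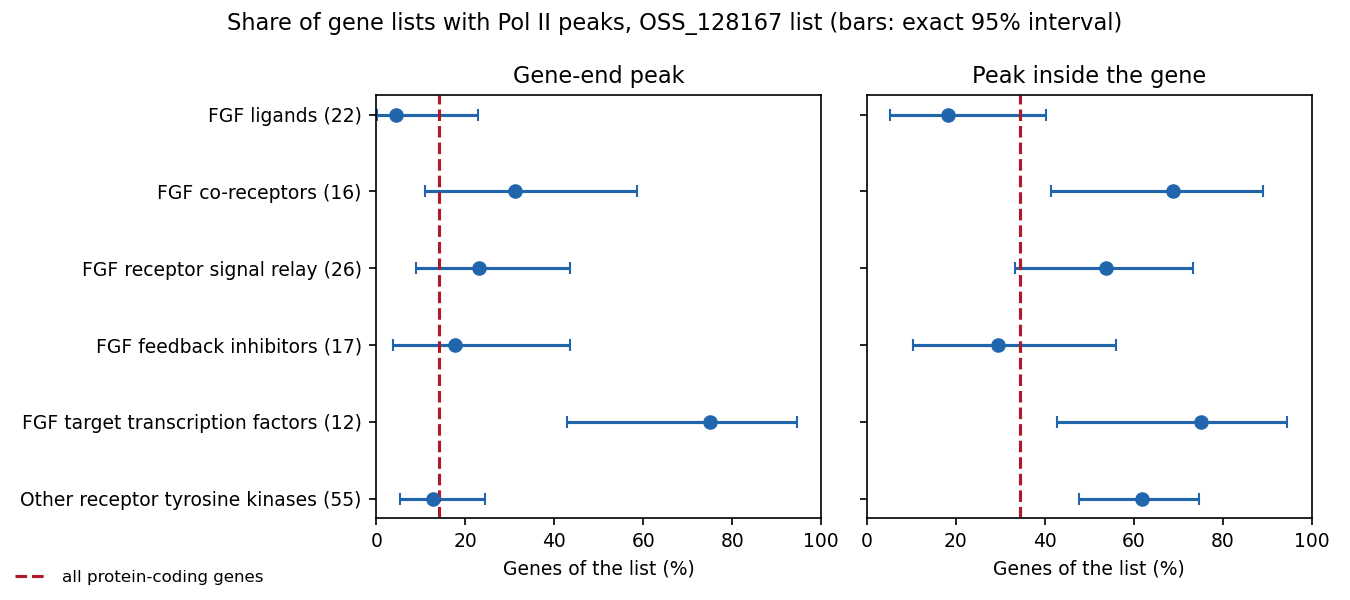
Share of each gene list (number of genes in brackets) with a gene-end peak (left) and with a peak inside the gene (right) in the OSS_128167 list, in percent. Points are shares, bars the exact 95% binomial intervals, which cover counting only, and the dashed lines the shares of all protein-coding genes, 14.1% and 34.4%. The transcription factor list is at 75% in both panels, and the receptor tyrosine kinases other than the 4 members are at 12.7% and 61.8%.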

How the data were processed

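The analysis used the peak lists of 2 Pol II ChIP-seq libraries, 1 per condition. The submitters' processing notes name fastp, BWA and the mm10 build. The peak caller, its limits and any use of the inputs were not given in the sources used here. Per the file headers, each deposited row gives a peak's position, its length, the authors' fold enrichment (a ratio), p-value and FDR, and a pileup (a signal height). These values belong to 1 list and were used only to describe or filter its peaks. The largest deposited p-values were 0.00956 (untreated) and 0.00999 (OSS_128167), so the lists are permissive. Depth is unknown.

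Gene boundaries came from RefSeq GRCm38.p6, the assembly behind mm10, and strand and promoter windows from its promoter table. A peak counted for a gene at an overlap of at least 1 bp. Named genes were the members, Fgfr4, their neighbours, up to 4 genes per list by gene-end fold, all listed genes with an untreated peak, and 3 nearest genes per member; others are marked or serve as comparison. Some genes that this rule names are not reported here. Members and lists were chosen with earlier results of these data known. With no replicate, no test was run; exact (Clopper-Pearson) 95% intervals cover counting only, and neighbouring genes share peaks. The interval counts, checked on simulated data, differed in 0 of 300 windows from a direct search. The versions were 3.11.15 for Python, 2.4.6 for numpy, 2.3.3 for pandas, 1.17.1 for scipy and 3.10.9 for matplotlib.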

Additional observations from a re-analysis of the deposited data

How the results depend on the processing

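The number of OSS_128167 peaks at the 4 receptor genes depended on how peaks were filtered and joined. From 82 it went to 47 at an FDR of at most 0.05 and to 11 at an FDR of at most 1e-05, all 11 at Fgfr2, and to 24 when peaks less than 1 kb apart were joined. Fgfr2 was covered over 51.3% at an FDR of at most 0.05, over 22.3% at 1e-05 and over 82.4% with close peaks joined, when its 58 inside peaks became 11. Fgfr1 kept 2 inside peaks at an FDR of at most 0.05 and Fgfr3 0. Members with a gene-end peak numbered 2 with a window of 2000 bp, which took in Fgfr3. Pathway genes with one fell from 24 to 13 at the limit of 0.05. Without the inhibitor their number went from 1 to 0 at that limit and to 2 with the window of 2000 bp. The other receptor tyrosine kinases with one went from 7 to 2 at that limit. With the peak centre and with flanks of 5 and 50 kb, the peaks at the members numbered 82, 71 and 85. The untreated list had 0 peaks at the members under all 6 alternatives tried. No paired analysis was possible because each condition had 1 library, and no replicate could be left out. The lists hold no read totals, so a gene without a peak may still carry Pol II below the limit of detection.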
